A study of Mus musculus with 4 samples.

Results

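The insulin-like growth factor (IGF) axis was examined in primary keratinocytes that carried or lacked the glucose transporter Glut1. The gene set comprised 6 binding proteins (Igfbp2, Igfbp3, Igfbp4, Igfbp5, Igfbp6 and Igfbp7), the receptors Igf1r and Insr, and the receptor adaptors Irs1 and Irs2, 10 genes of 30142 named by the platform annotation. A gene was represented by its brightest row of exactly 1 gene symbol, and 9 of the 10 genes had such a row, 1 row each. Insr was not analysed here. Both groups were primary keratinocytes of C57BL/6J mice 1 week old, one wild type (WT) and one with Glut1 deficiency in keratinocytes (KO), with 4 mice and 2 arrays per genotype. Each array held RNA from 2 plates of cells, joined at random within a genotype. Standard errors and p-values thus rest on the spread between pooled arrays, and the spread between mice was not measured. The sources used here do not give the promoter or Cre line behind the deficiency, nor the deleted part of the gene, so signal left in its row is no measure of remaining function. Cells of both genotypes grew for 3 days in a keratinocyte medium with 0.05 mM CaCl2, 5 ng/ml EGF, 0.05 ug/ml hydrocortisone, 7.5 ug/ml bovine pituitary extract and 0.5 ug/ml insulin, were then seeded again at 2000000 cells, and were harvested after a night in culture. Insulin was thus present in all 4 cultures.

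IGF1 and IGF2 act through the IGF1 receptor, a tyrosine kinase closely related to the insulin receptor. The activated receptors phosphorylate the adaptors IRS1 and IRS2, which recruit PI3 kinase and so activate Akt, and Akt keeps the FoxO transcription factors out of the nucleus. Secreted IGF-binding proteins hold IGFs in complexes and limit or prolong their access to the receptor, and proteases release the ligand again. In skin, dermal fibroblasts are a main source of IGF1, and IGFBP3 is made by basal keratinocytes.

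All values are log2 signals, so a difference of 1 is a 2-fold difference in signal, and levels of different genes are not compared because each has its own probes. The background floor is the 95th percentile of 23 background control rows on the same array, and it lay between 4.36 and 4.87. The targeted gene Slc2a1, which encodes Glut1, read 13.26 and 13.40 on the WT arrays and 12.09 and 12.01 on the KO arrays. It fell by 1.28 (SE 0.10, n = 2 arrays per genotype, limma adjusted p = 0.00754), and the adjusted p was 0.0508 without KO replicate 1. Array medians ran from 4.19 to 4.24, and arrays of a genotype correlated at 0.997 to 0.998 across the tested rows against 0.989 to 0.992 between genotypes. The basal keratinocyte markers Krt5 and Krt14 lay between 16.97 and 18.69 on all arrays, and the late differentiation marker Lor was below the floor on all of them.

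The upstream regions of 3 genes are shown because the 2 adaptor genes moved in opposite directions and Igfbp3 had the largest difference of the 9 genes. Each sequence is the 250 bases before the RefSeq transcript start, read along the gene from 5′ to 3′, from the RefSeq promoter table of build GRCm38.p6, which held all 9 genes. Capitals mark matches to 5 motifs searched on both strands, none of which overlapped another.
Irs1, chr1:82291440-82291689, minus strand: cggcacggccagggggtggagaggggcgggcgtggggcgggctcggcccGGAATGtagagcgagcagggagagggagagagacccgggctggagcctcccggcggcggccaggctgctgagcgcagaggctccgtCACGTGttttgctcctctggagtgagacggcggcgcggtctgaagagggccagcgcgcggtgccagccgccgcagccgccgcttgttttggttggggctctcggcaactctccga
Irs2, chr8:11008930-11009179, minus strand: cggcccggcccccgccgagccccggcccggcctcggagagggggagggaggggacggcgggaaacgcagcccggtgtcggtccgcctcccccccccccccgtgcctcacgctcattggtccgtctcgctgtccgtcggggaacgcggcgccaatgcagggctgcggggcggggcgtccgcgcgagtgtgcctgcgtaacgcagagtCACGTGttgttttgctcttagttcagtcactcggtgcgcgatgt
Igfbp3, chr11:7213924-7214173, minus strand: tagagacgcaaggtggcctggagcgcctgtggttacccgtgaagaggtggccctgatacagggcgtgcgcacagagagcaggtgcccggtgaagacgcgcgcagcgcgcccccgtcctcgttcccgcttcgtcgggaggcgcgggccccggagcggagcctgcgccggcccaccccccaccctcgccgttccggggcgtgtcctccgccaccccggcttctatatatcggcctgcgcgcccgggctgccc

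The E-box CACGTG, a core bound by basic helix-loop-helix factors, occurred in the windows of both adaptor genes, at -115 to -110 in Irs1 and at -44 to -39 in Irs2, counted from the transcript start. It also occurred in the window of 1 of the 2 listed starts of Igfbp2. Of 32851 promoter windows of the same length, not matched for G and C content, 6.02% held it. The TEAD motif GGAATG was found in Irs1 at -201 to -196 and in Igfbp5, and in 12.64% of all windows. TATAAA was found in Igfbp4 at -28 to -23, in Igfbp6 on the opposite strand at -148 to -143, and in 12.37% of all windows. Only these exact letters were searched. Neither the FoxO motif GTAAACA, found in 3.17% of all windows, nor the amino acid response motif TGATGNAA, found in 3.45%, occurred in the window of any of the 9 genes. The windows of Irs1, Irs2 and Igfbp3 were rich in G and C, at 72.4%, 72.8% and 73.2%, against a median of 52.4% over all windows. A match is a match of letters only, and these arrays do not measure binding.

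Between genotypes 5 of the 9 measured genes differed, 2 higher and 3 lower in the KO cells, while 4 did not pass (limma, adjusted p under 0.05). In the whole table, 2209 of 30604 rows (7.22%) passed, 4.11% higher and 3.11% lower. Of the 15233 rows above the floor on both arrays of a group, 14.1% passed. The groups did not overlap in 8 of the 9 genes, against 49.7% of all rows and 65.0% of the rows above the floor on both arrays of a group. The median size of the difference, regardless of sign, was 1.19 over the 9 genes and 0.14 over all rows. Of all rows, 13634 were at background on all 4 arrays. The members were chosen with earlier results of these data known, so these shares and medians are descriptive and no test of the set. On all 4 arrays 6 genes were above the floor, and Igfbp2, Igfbp5 and Igfbp6 were at or below it on all 4.

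**Figure D1:**
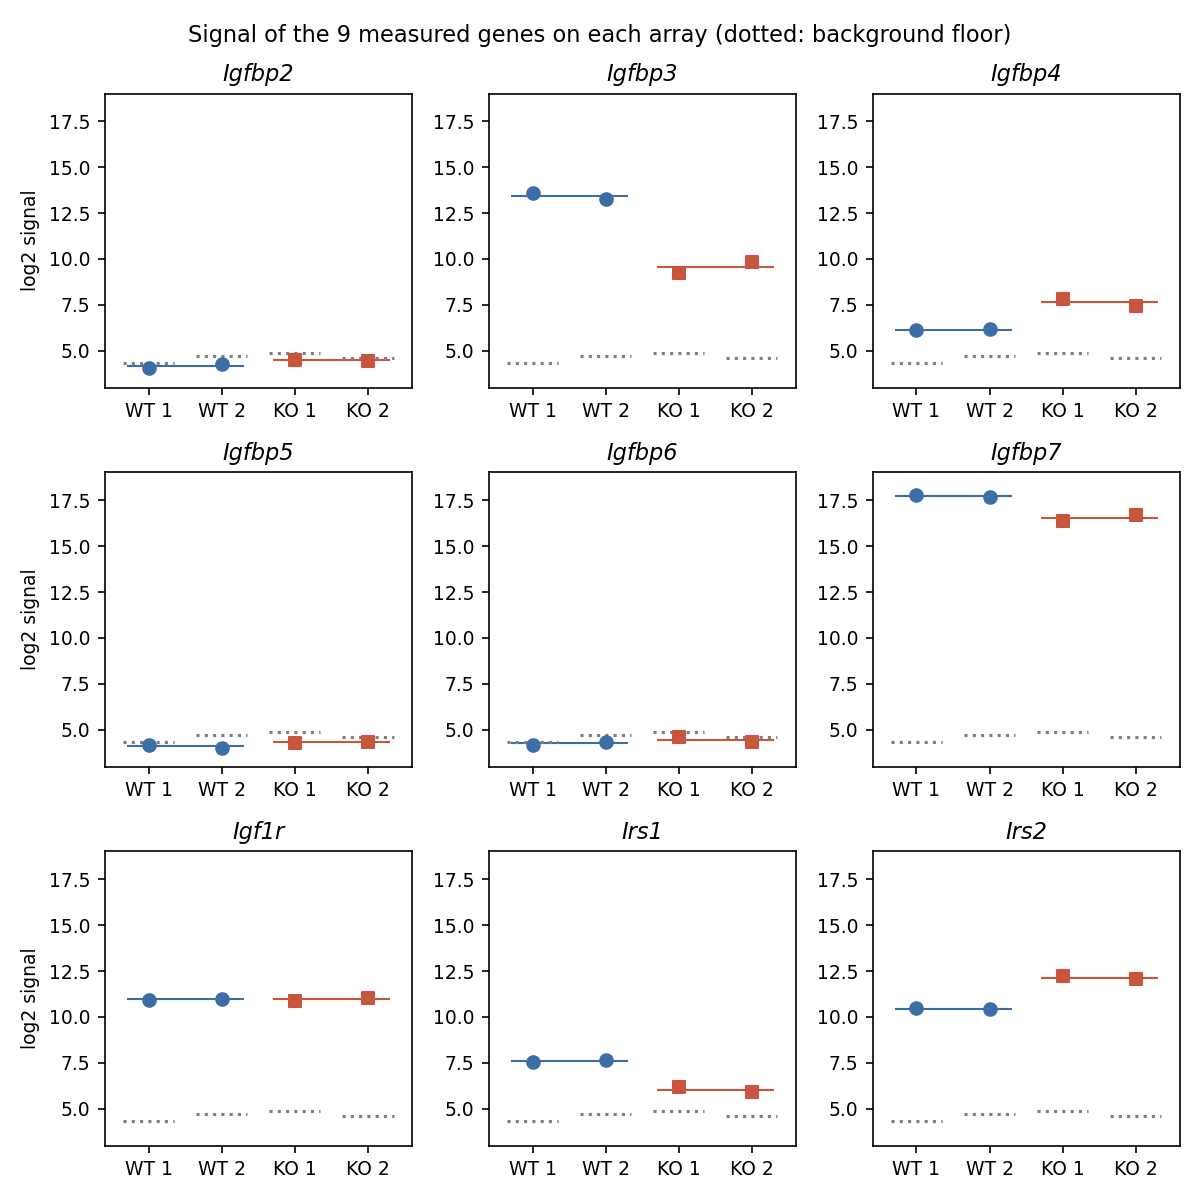
Log2 signal of each measured gene on each of the 4 arrays, circles for wild type and squares for Glut1-deficient cells, with the group mean as a line and the background floor of each array dotted. Igfbp3 drops from above 13 to below 10, Irs1 and Irs2 part in opposite directions, and Igfbp2, Igfbp5 and Igfbp6 lie at the floor.

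Among the binding proteins, Igfbp3, the main IGF carrier of the circulation and a product of basal keratinocytes, read 13.59 and 13.26 in WT and 9.26 and 9.83 in KO cells. Both KO arrays were far below both WT arrays, with a gap of 3.43 against a spread of at most 0.56 within a genotype, and still well above the floor. The mean fell by 3.88 (SE 0.22, 95% interval -4.45 to -3.31, n = 2 per group, limma adjusted p = 0.00427), a 14.7-fold lower signal. By size and direction this was the fifth lowest value of the 30604 rows. With 1 array left out the difference ran from -4.16 to -3.60 with adjusted p-values from 0.00805 to 0.0256. Of the 6 basal keratinocyte markers 5 had lower values in KO cells, each by less than Igfbp3, and Trp63 a higher one. Their summed signal was 19.30 and 19.41 in WT and 18.99 and 18.72 in KO cells, and Col17a1 alone passed (-0.86, SE 0.11). Such a sum is the log2 of the added linear signals of a list, so the brightest markers weigh most in it. Fewer basal cells and less RNA per cell cannot be told apart in these bulk cultures.

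Igfbp7, a secreted protein with an IGF-binding domain but low affinity for IGFs, read 17.76 and 17.68 in WT and 16.36 and 16.70 in KO cells. Its signal was close to the top of the scale of these arrays, whose highest value was 19.7, and the groups did not overlap. It fell by 1.19 (SE 0.14, 95% interval -1.56 to -0.83, n = 2 per group, limma adjusted p = 0.0168), a 2.29-fold lower signal. The call was lost without WT replicate 1, WT replicate 2 or KO replicate 1, with adjusted p-values of 0.0735, 0.0577 and 0.0576, while the difference stayed between -1.37 and -1.02. The fall of Igfbp3 exceeded that of Igfbp7 on both KO arrays: the Igfbp3 signal minus the Igfbp7 signal was -4.17 and -4.42 in WT and -7.09 and -6.88 in KO cells. That within-array value shifted by -2.69, with an exact two-sided permutation p of 0.333, the smallest that 2 arrays against 2 can give. The pair was compared with both changes known.

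Igfbp4, a binding protein that mostly inhibits IGF action and is cleaved by the protease pappalysin-1, moved the other way. It read 6.14 and 6.17 in WT and 7.83 and 7.46 in KO cells, so the WT arrays were nearly equal and both KO arrays were higher. The rise was 1.49 (SE 0.15, 95% interval 1.11 to 1.86, n = 2 per group, limma adjusted p = 0.0116), a 2.81-fold higher signal. Without WT replicate 1 the rise was 1.47 with an adjusted p of 0.0501, and without each of the other arrays it passed, with rises from 1.30 to 1.68. The Igfbp4 signal minus the Igfbp3 signal shifted by 5.37, from -7.45 and -7.09 in WT to -1.43 and -2.37 in KO cells. The exact permutation p was again the smallest possible, 0.333. This pair was compared with its opposite changes known, and such changes without overlap fixed that p in advance. The offset between the probes has no meaning of its own.

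Igfbp2, Igfbp5 and Igfbp6, which encode further IGF carriers, gave no signal above background. Igfbp2 read 4.05 and 4.27 in WT and 4.53 and 4.43 in KO cells. Igfbp5 read 4.18 and 4.02 against 4.30 and 4.37, and Igfbp6 4.19 and 4.33 against 4.61 and 4.34. No fold is given for them because both groups were at background, and none passed (limma adjusted p = 0.207, 0.288 and 0.455). Binding protein signal above background was thus confined, among these 6 genes, to Igfbp3, Igfbp4 and Igfbp7.

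**Figure D2:**
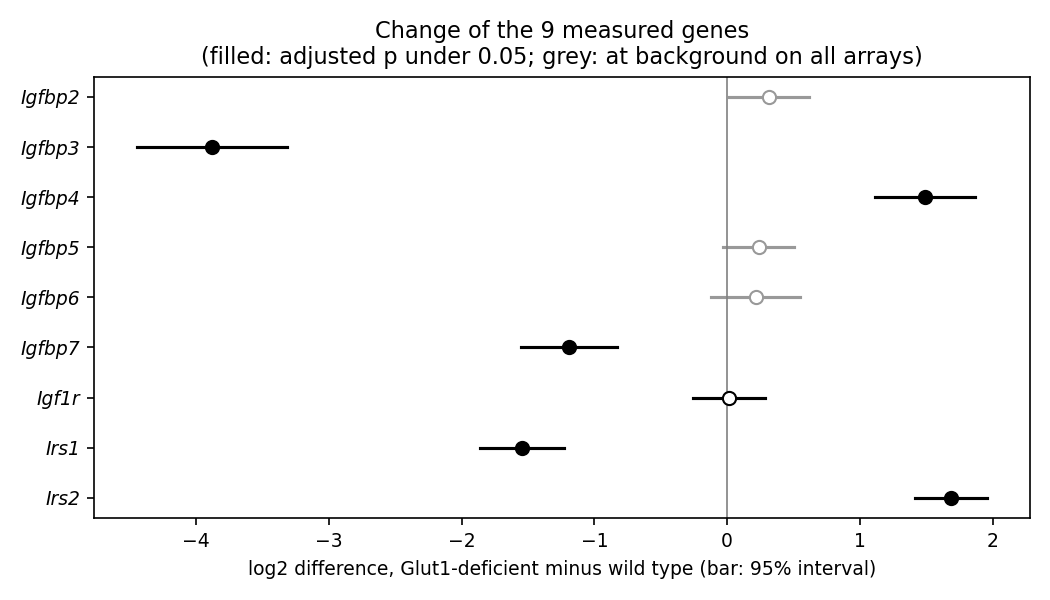
Log2 difference, Glut1-deficient minus wild type, for each measured gene with its 95% interval from limma (n = 2 per group). Filled points passed at an adjusted p under 0.05, open points did not, and grey marks the 3 genes at background; Igfbp3 at -3.88 lies farthest from 0 and Igf1r at 0.01 nearest.

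Igf1r, the signalling receptor for IGF1 and IGF2, read 10.93 and 10.99 in WT and 10.89 and 11.05 in KO cells. It was the only measured gene of the set whose groups overlapped. Igfbp2, Igfbp5 and Igfbp6 were separated only at background, Igfbp6 by 0.0065. The difference was 0.01 (SE 0.11, 95% interval -0.26 to 0.28, n = 2 per group, limma adjusted p = 0.975), an interval that reaches from 0.836-fold to 1.22-fold. It took both signs when single arrays were left out, between -0.07 and 0.10.

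The adaptors changed in opposite directions. Irs1, which carries insulin and IGF1 signals in many growing cells, read 7.54 and 7.63 in WT and 6.17 and 5.91 in KO cells. Both KO arrays were lower, by at least 1.37, and the fall was 1.54 (SE 0.12, 95% interval -1.86 to -1.23, n = 2 per group, limma adjusted p = 0.00754), a 2.92-fold lower signal. Irs2, the adaptor whose gene is induced in fasted liver and is a known FoxO target there, read 10.48 and 10.42 in WT and 12.22 and 12.05 in KO cells. Both KO arrays were higher, by at least 1.57, and the rise was 1.69 (SE 0.11, 95% interval 1.42 to 1.96, n = 2 per group, limma adjusted p = 0.00508), a 3.22-fold higher signal. Both calls held without each array in turn, with adjusted p-values from 0.0304 to 0.0335 for Irs1 and from 0.0193 to 0.0331 for Irs2.

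Within each array the Irs2 signal minus the Irs1 signal was 2.94 and 2.79 in WT and 6.05 and 6.14 in KO cells. This value shifted by 3.23, or 9.39-fold, while its spread within a genotype was at most 0.11 (SD, n = 2). The exact two-sided permutation p was 0.333, the smallest possible here, and the pair was compared with its opposite changes known. Opposite changes without overlap fixed that p in advance, so it adds no evidence. The shift shows unequal change of the 2 adaptors; the offset between their probes has no meaning of its own. Their upstream windows shown above both hold the E-box letters, as does a window of Igfbp2, and any role in these changes was not tested.

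**Figure D3:**
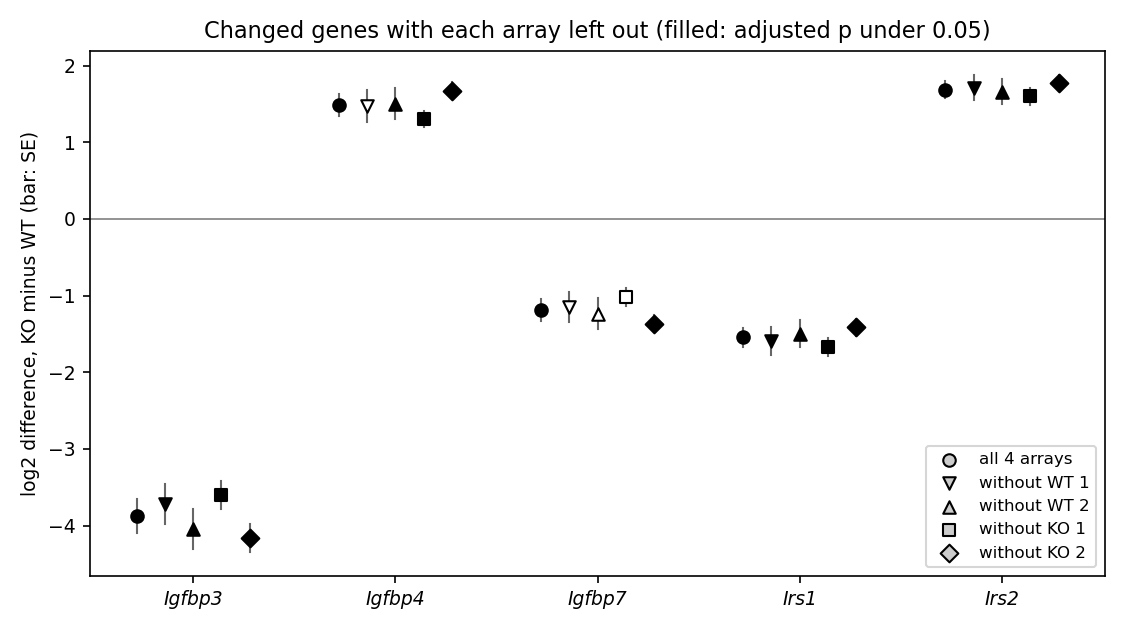
Log2 difference, Glut1-deficient minus wild type, of the 5 genes that passed, from all 4 arrays and with each array left out, with limma standard errors; filled symbols passed at an adjusted p under 0.05. Igfbp3, Irs1 and Irs2 stay filled throughout, Igfbp4 is open once and Igfbp7 3 times.

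When every row of the table was tested, control and unnamed rows included, 74 rows passed. Of the 9 genes Igfbp3 alone then passed (limma adjusted p = 0.0493), while Irs2, Irs1, Igfbp4 and Igfbp7 had adjusted p-values of 0.0516, 0.0648, 0.0767 and 0.0931. The differences themselves are unaffected by that choice. In all alternatives run, each of the 5 genes kept its direction.

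Other genes of the pathway were read from the same fit: 59 of 64 listed genes had a row, 7 rose, 4 fell and 48 did not pass. The 11 that passed are 18.6% of the 59, beside 7.22% of all rows, and 43 of the 59 were above the floor on both arrays of a group, where 14.1% of all such rows passed. The median difference was 0.05, and -0.01 over all rows. With 1 array left out 4 to 5 of the 59 passed, and with every row tested 2 passed, Stc2 and Grb10.

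Ligand transcripts were not clearly detected. Igf1 read 4.42 to 4.47 on the 4 arrays, Igf2 4.36 and 4.37 in WT and 4.82 and 4.72 in KO cells, and Ins2 4.22 to 4.48. Each of the 3 exceeded the floor on 1 of the 4 arrays only, by small amounts. None of the 7 measured ligand, carrier and further binding protein genes passed, and Igfbp1 was below the floor on all 4 arrays. Ide, the insulin-degrading enzyme, was well above the floor and overlapped between groups (12.86 and 13.79 against 13.93 and 13.63). Igf2r, the receptor that clears IGF2, read 11.99 and 12.18 in WT and 12.53 and 12.47 in KO cells and did not pass (0.42, limma adjusted p = 0.0990), nor did Tmem219, a receptor for IGFBP3 (0.40, limma adjusted p = 0.0758).

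Of the 4 measured genes for binding-protein proteases and their inhibitors 1 rose. Stc2, which encodes stanniocalcin-2, a secreted inhibitor of pappalysin-1, read 6.23 and 6.41 in WT and 8.83 and 8.71 in KO cells. The rise was 2.45 (SE 0.11, 95% interval 2.16 to 2.73, n = 2 per group, limma adjusted p = 0.00274), 5.45-fold, and it passed in all alternatives. Pappa, the gene of pappalysin-1 itself, was below the floor on all 4 arrays. Stc1, the related inhibitor, read 5.54 and 5.36 in WT and 6.17 and 7.60 in KO cells, and did not pass (1.44, SE 0.46, limma adjusted p = 0.148). Its value rested on the KO arrays: without KO replicate 1 it was 2.15 and passed (adjusted p = 0.0305), and without KO replicate 2 it was 0.72 (adjusted p = 0.0760). Htra1, a secreted serine protease that cleaves binding proteins, did not pass (-0.43, limma adjusted p = 0.0731). Among the rows above the floor alone, Htra1 and Tmem219 passed narrowly (adjusted p = 0.0470 and 0.0495).

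Among 9 other adaptors 2 rose by small amounts, Gab1, a docking protein of receptor tyrosine kinases, by 0.57 (SE 0.11) and Sos2, a Ras exchange factor, by 0.52 (SE 0.10). Shc1, Grb2, Sos1, Sh2b1, Sh2b2, Irs3 and Irs4 did not pass, and Irs3 and Irs4 were below the floor. Among 9 PI3 kinase and Akt genes 2 fell. Akt1, the most widely expressed Akt kinase, read 13.36 and 13.34 in WT and 12.78 and 12.68 in KO cells and fell by 0.62 (SE 0.10, limma adjusted p = 0.0276), and the regulatory subunit gene Pik3r3 fell by 0.58 (SE 0.10). The catalytic subunit genes Pik3ca and Pik3cb, at -0.33 and -0.29, did not pass. These 4 calls were lost whichever array was left out: adjusted p-values were 0.0761 to 0.208 for Gab1, 0.118 to 0.218 for Sos2, 0.0782 to 0.145 for Akt1 and 0.106 to 0.195 for Pik3r3.

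Of 11 measured brakes on the pathway 2 rose and 1 fell. Grb10, an adaptor that binds the insulin and IGF1 receptors and dampens their signal, read 9.28 and 9.15 in WT and 11.57 and 11.40 in KO cells. It rose by 2.27 (SE 0.11, 95% interval 1.98 to 2.55, n = 2 per group, limma adjusted p = 0.00311), 4.81-fold, in the same cells in which Igf1r differed by 0.01, and it passed in all alternatives. Trib3, a pseudokinase that binds Akt and is also a target of the Atf4 stress response, read 6.94 and 6.71 in WT and 9.79 and 8.88 in KO cells. Its rise of 2.51 (SE 0.31, limma adjusted p = 0.0172) was lost without WT replicate 1 or 2 (adjusted p = 0.0516 and 0.0552). Phlpp2, an Akt phosphatase, fell by 0.55 (SE 0.09), a call lost whichever array was left out (adjusted p from 0.0829 to 0.168). The related Grb14, at 5.71 and 5.79 in WT and 5.91 and 5.91 in KO cells, did not pass.

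None of the 4 FoxO genes passed, and Foxo1 differed by -0.01 (SE 0.11). Of 13 genes that FoxO factors activate in other cells 2 rose and 1 fell. Gadd45a, a growth arrest and DNA damage gene, rose from 7.65 and 7.76 to 9.54 and 9.22 (1.68, SE 0.14, limma adjusted p = 0.00756), and the repressor gene Bcl6 rose by 0.70 (SE 0.09), a call lost whichever array was left out (adjusted p from 0.0646 to 0.117). Fbxo32, the ubiquitin ligase atrogin-1, went down from 9.44 and 8.87 to 7.32 and 7.44 (-1.78, SE 0.20, limma adjusted p = 0.0153), and its call was lost without KO replicate 1 or 2 (adjusted p = 0.0884 and 0.0571). The other 10 genes of that list did not pass, and Trim63, Pck1 and G6pc were below the floor.

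**Figure D4:**
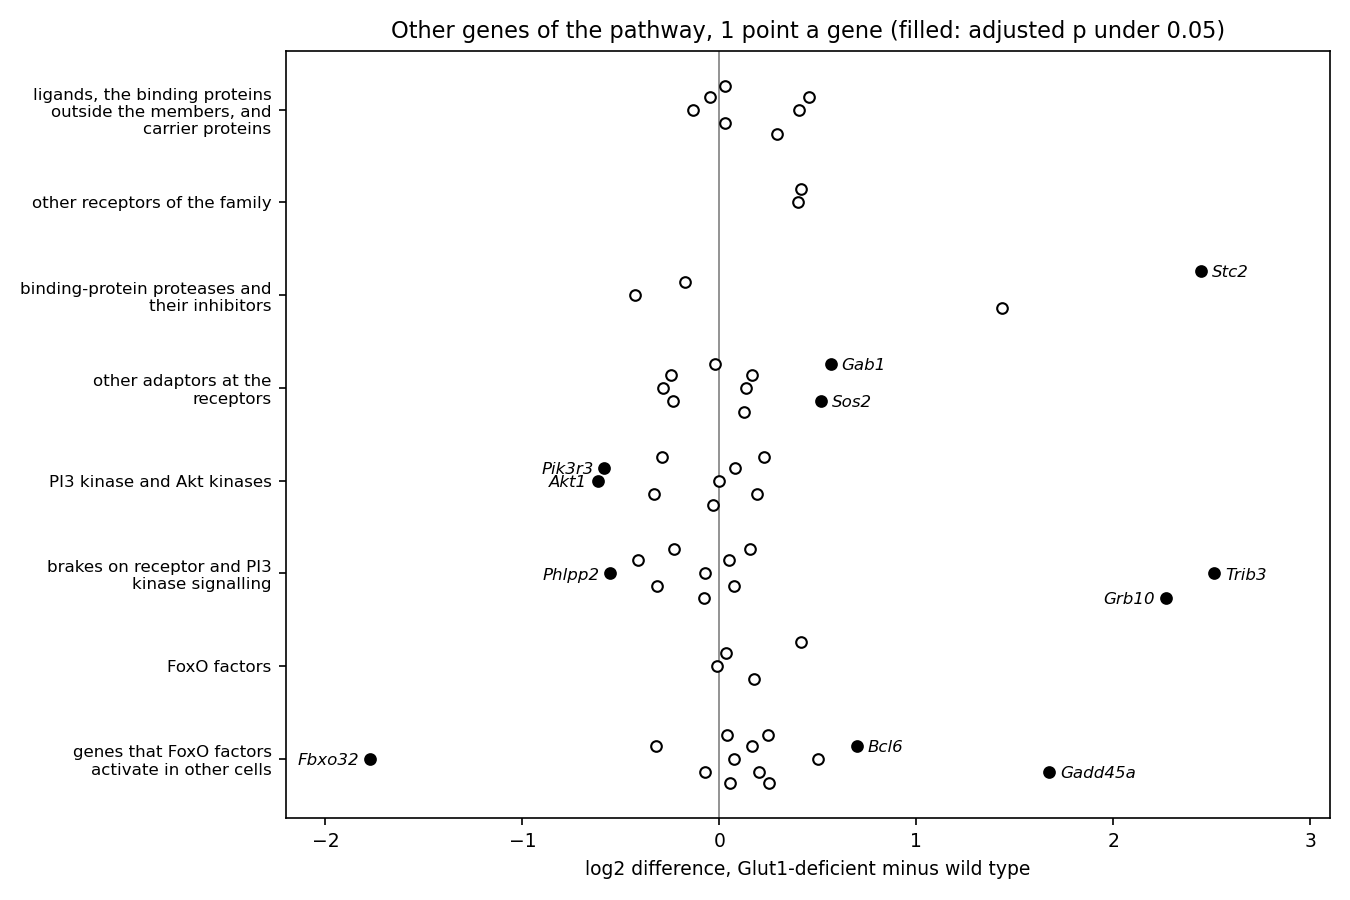
Log2 difference, Glut1-deficient minus wild type, of the 59 other measured pathway genes, grouped by role, 1 point a gene; filled and named points passed at an adjusted p under 0.05. Stc2, Grb10 and Trib3 lie above 2, Fbxo32 lies below -1, and the ligand, receptor and FoxO lists hold no filled point.

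By pattern over the 4 arrays, with each gene centred on its own mean, the genes nearest to Igfbp3 among 15026 candidates were Plekhs1, Rflnb and the chemokine gene Cxcl3, at root mean square differences of 0.11, 0.20 and 0.26. Their differences between genotypes were -3.71, -3.57 and -3.44. Nearest to Irs2 were Mei4, Sel1l3 and Aloxe3, a lipoxygenase gene of the epidermal barrier, at 0.01, 0.04 and 0.04, with differences of 1.68, 1.67 and 1.74. With 2 groups of 2 arrays such likeness mainly reflects a like difference between genotypes.

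Markers of other cells in skin cultures were also read. In the melanocyte, fibroblast, endothelial and immune lists 1 marker each passed. Beside this, 7.22% of all rows passed, and 14.1% of those above the floor on both arrays of a group. Over all 30604 rows, 14516 differences were positive. The sums below weigh the brightest marker of a list most and are no measure of cell number. All 7 melanocyte markers had positive differences, with a summed signal of 10.55 and 10.05 in WT and 12.38 and 11.14 in KO cells, and Pmel passed (1.04, SE 0.18). All 7 measured fibroblast markers also had positive differences, 3 of them without lying above the floor on both arrays of a group, at sums of 7.16 and 7.19 against 7.69 and 8.13. Dcn, below the floor on both WT arrays (4.08 and 3.82) and at 5.28 and 5.97 in KO cells, was at least 2.14-fold higher, measured against the floor (limma adjusted p = 0.0250), while Col3a1 and Lum were below the floor on all arrays. Of the endothelial markers Kdr rose by 3.60 (SE 0.23), from 6.11 and 6.34 in WT to 10.14 and 9.51 in KO cells. The endothelial sums, 7.20 and 7.37 against 10.24 and 9.66, followed Kdr. Of the other 5 endothelial markers 4 were at background on all arrays. Pecam1 was above the floor on 1 WT array only and had a lower value in KO cells (-0.32), which did not pass. Cd68 rose by 1.95 (SE 0.30) among 6 immune markers whose other 5 were at background, with sums of 8.13 and 8.21 against 9.44 and 10.28. None of 5 smooth muscle and pericyte markers passed (11.59 and 11.62 against 11.23 and 11.52). Among 6 differentiation markers Sbsn rose by 1.70 (SE 0.27) and Ivl fell by 1.36 (SE 0.20), with sums of 9.51 and 9.59 against 9.74 and 9.88. Of the 7 marker calls only that of Kdr held without each array in turn; the others passed in 0 to 2 of the 4 fits, with adjusted p-values up to 0.134 (Sbsn, without KO replicate 1). Pmel, Dcn, Cd68, Ivl and Col17a1 were lost without either WT array, Pmel, Ivl, Col17a1 and Sbsn without KO replicate 1, and Col17a1 and Sbsn without KO replicate 2. Fibroblasts and endothelial cells are known to make IGF-binding proteins, but of the endothelial markers only Kdr rose. The part of fibroblasts, melanocytes or any other cells in the changes of Igfbp3, Igfbp4 and Igfbp7 was not tested.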

How the data were processed

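The RNA of 4 keratinocyte cultures was hybridised to MTA-1_0 arrays of 1 channel. The authors deposited a log2 signal for each transcript cluster. Per the submitters' processing notes the tools were Affymetrix Expression Console and RMA, and per the labels the values are SST-RMA signals at gene level. The sources used here do not give versions, the genome build or the arrays normalized together. RMA aligns the array distributions, which can remove a shift common to most genes. The deposited values were close but not equal in distribution, with array medians from 4.19 to 4.24. SST-RMA transforms the signal, so folds can deviate from plain RMA.

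Rows with exactly 1 gene symbol (30604) were compared between genotypes with limma 3.58.1 in R 4.3.3 (lmFit and eBayes), two-sided, with Benjamini-Hochberg adjustment over all of them and no replicate block. The procedure was also run on simulated independent rows with variances drawn from limma's own fit to these data. That run cannot show how often calls are wrong in these pooled cultures. The text names all members, Slc2a1, up to 4 called genes with the smallest p of each pathway list (otherwise up to 2), the brightest and the called markers, and the 3 genes nearest in pattern to each of the 2 most changed members. Some further list genes are named beside them. Members, lists and motifs were chosen with earlier results of these data known. The number of arrays limits the precision. Symbols followed the RefSeq gene table of GRCm38.p6 where Entrez identifiers matched (22815 rows). Alternatives changed the normalization, the tested rows, the variance moderation or the row per gene, added a replicate block, or left out 1 array.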

Additional observations from a re-analysis of the deposited data

How the results depend on the processing

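Under the 13 alternatives the directions of Igfbp3, Igfbp4, Igfbp7, Irs1 and Irs2 did not change. Those that changed the tested rows, the variance moderation or the row per gene, or added the block, gave the same differences. Leaving out 1 array could not reverse them, since their groups did not overlap. Quantile normalization gave differences of -3.86, 1.54, -1.27, -1.50 and 1.73, in that order. The count of rows that passed, 2209 with all 4 arrays, ran from 314 to 1214 with 1 array left out, and the count of members ran from 3 to 5 and that of the other pathway genes from 4 to 5. With every row of the table tested, 74 rows, 1 member and 2 other pathway genes passed, and the cause was not tested. The replicate numbers do not pair the samples, since plates were combined at random, and the deviations of same-numbered arrays correlated at -0.23. With the replicate block 1849 rows, the same number of members (5) and 6 other pathway genes passed. Restricting the test to the 15233 rows above the floor gave 3135 rows, 5 members and 14 other pathway genes, without Igfbp2, Igfbp5 and Igfbp6, and rows at or above the median mean gave 3043, 5 and 13. With 2 arrays per group, a gene that did not pass is not shown to be unchanged, and genes at the floor give no fold.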
